A study of Macaca mulatta with 9 samples.

Results

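The insulin, IGF and mTOR signalling families were described in small antral follicles (SAFs) of rhesus macaques by 133 probe sets for 70 genes, out of 52766 probe sets on the array after its control probe sets were left out. Members were taken by name. They are probe sets with a single annotation symbol that begins with IGF, PIK3 or RPS6K, or with IRS, AKT, TSC, FOXO, SHC, GRB or SOS followed by a digit, or that is PTPN1, MTOR, RPTOR or PDPK1. The name rule also took 8 genes that share a prefix without being known parts of the pathway, and these are given last. The rule uses names and no measured value, though it was drawn up with earlier results of these data known. Of the 133 probe sets, 99 for 57 genes were tested, because their mean over the 9 arrays reached the median of all probe sets. The other 34 were too dim to be tested, and 13 genes were represented only by such probe sets: IGFL1, IGFL3, IGFALS, IRS4, GRB7, PIK3CD, PIK3C2G, PIK3R5, RPS6KL1, FOXO6, IGF2BP1, IGF2BP2 and IGFN1.

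SAFs came from 3 groups of young adult females, with 3 arrays each. WSD+T females received a western-style diet (WSD) together with chronically elevated androgen (testosterone, T), WSD females received the diet alone, and control females received a normal standard diet. No group received testosterone on the standard diet, so WSD+T differs from control in both diet and androgen. All were sampled in the early follicular phase, at or near menses. Each array averages a few follicles that looked healthy, put together for each ovary of a female; an ovary gave 3.7 ± 0.3 SAFs, with the kind of error not stated, and there were 3 ovaries in a group. The labels do not say whether these came from 3 females, so n = 3 counts ovaries labelled as biological replicates. The whole content was lysed, follicle wall, granulosa cells and cumulus-oocyte complex together. In such bulk RNA fewer cells of a type and less RNA per cell cannot be told apart. The doses and durations of the diet and the androgen were not given in the sources used here.

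Insulin and the insulin-like growth factors act through receptor tyrosine kinases, which recruit the IRS and SHC adaptors and through them class I PI3-kinase and the RAS pathway. PI3-kinase lipids activate AKT by way of PDPK1, and AKT restrains the FOXO transcription factors and the TSC1-TSC2 complex, the brake on the growth kinase mTOR and its S6 kinase targets. In ovarian follicles these signals are known to act with gonadotropins on granulosa cell growth and steroid synthesis, and IGF-binding proteins set how much free IGF is available.

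Values are linear signal intensities, scaled by the authors so that each array had a trimmed mean of 200.01. Each probe set has its own brightness, so levels are compared between arrays and not between probe sets. Fold changes are differences of log2(signal + 16), with adjusted p from limma over all 26383 tested probe sets, and a probe set is called below 0.05. WSD arrays varied most. Over all tested probe sets the mean within-group variance on this scale was 0.0411 in WSD+T, 0.330 in WSD and 0.152 in control. All 8 granulosa, 6 theca and 7 oocyte markers that had a probe set passed the filter, and the aromatase gene CYP19A1, the androgen-producing enzyme CYP17A1 and the zona pellucida gene ZP3 each had signal above 38 on every array. The summed signal of the 8 granulosa markers was 4311 to 4351 in WSD+T, 3472 to 5926 in WSD and 6673 to 8946 in control, with INHA and INHBB called lower in WSD+T and in WSD and INHBA called higher in WSD (0.51, adjusted p = 0.0448). Of the 6 theca markers, CYP17A1, PTCH1 and HSD3B2 were called lower in WSD, and PTCH1 and HSD3B2 in WSD+T, each against control. The oocyte marker ZP4 was called higher in WSD and FIGLA in WSD+T, each against control, as was the smooth muscle marker TAGLN in WSD. The stromal marker LUM had 197, 431 and 191 in WSD+T, 22.4, 32.4 and 9.79 in WSD, and 920, 749 and 417 in control. It was lower in WSD than in control (-4.22, adjusted p = 0.00296) and higher in WSD+T than in WSD (2.89, adjusted p = 0.0205), directions that PIK3C2B and TSC1 share below. Of the 5 tested stromal markers LUM alone was called. DCN, COL1A1, COL1A2 and COL6A3 had WSD vs control log2 fold changes of -0.47, -0.16, -0.07 and 0.05. The part of these marker shifts in the members' values was not tested.

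The effect of the diet alone was read between WSD and control. Of the 99 tested member probe sets, 11 for 10 genes passed, or 11.1%, against 14.5% of all tested probe sets. In WSD 5 were higher, against 4.78% of all tested probe sets, and 6 were lower, against 9.68%. Higher in WSD were the binding proteins IGFBP3 and IGFBP6, the phosphatase PTPN1, the receptor inhibitor GRB10 and the adaptor protein SHC1. The called GRB10 probe set reached the filter only with its WSD arrays included. Those lower in WSD were the class II PI3-kinase PIK3C2B, the PI3-kinase regulatory subunit PIK3R3 by 2 probe sets, TSC1, MTOR and the RAS exchange factor SOS1. With each array centred on its median, only PIK3C2B and TSC1 of the lower members passed, while the 5 higher members stayed called. These calls share 1 estimate of spread with the tighter WSD+T arrays. With only the WSD and control arrays, 0 members were higher, against 1.08% of all tested probe sets, and PIK3C2B alone was lower, against 2.18%. With array weights per group, 0 were higher, against 1.74%, and PIK3C2B, SOS1 and TSC1 were lower, against 3.45%. Groups did not overlap for 31 members, or 31.3%, against 30.8% of all tested probe sets. Of these 15 were higher in WSD, against 10.6% of all tested probe sets, and 16 were lower, against 20.2%. The members' counts of calls lay near or below the background of this comparison, and their median log2 fold change was 0.04, against -0.08 for all tested probe sets.

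WSD+T compared with control combines diet and androgen. SHC1 alone among the members was called, as higher, and the background was 0.542% of all tested probe sets. No member was called lower by limma, against 1.43% of all, although 2 were lower at an unadjusted p under 0.05. In either direction the background was 1.97%. Groups did not overlap for 43 members, or 43.4%, against 36.8% of all tested probe sets, and 32 of these were higher in WSD+T, against 18.8%, and 11 lower, against 18% of all. The members' median log2 fold change was 0.05, and that of all tested probe sets was -0.01.

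WSD+T compared with WSD asks what androgen added on the diet. PIK3C2B and TSC1 were higher in WSD+T, against a background of 2.04%. Neither passed with arrays centred on their medians or with only the WSD+T and WSD arrays. No member was called lower by limma, where the background was 0.948%, and 1 was lower at an unadjusted p under 0.05. In either direction the background was 2.99%. Groups did not overlap for 24 members, or 24.2%, against 28.5% of all tested probe sets. The members' median log2 fold change was 0.06 and that of all tested probe sets was 0.09. The 3 comparisons share arrays in pairs, so their results are not independent of each other.

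**Figure D1:**
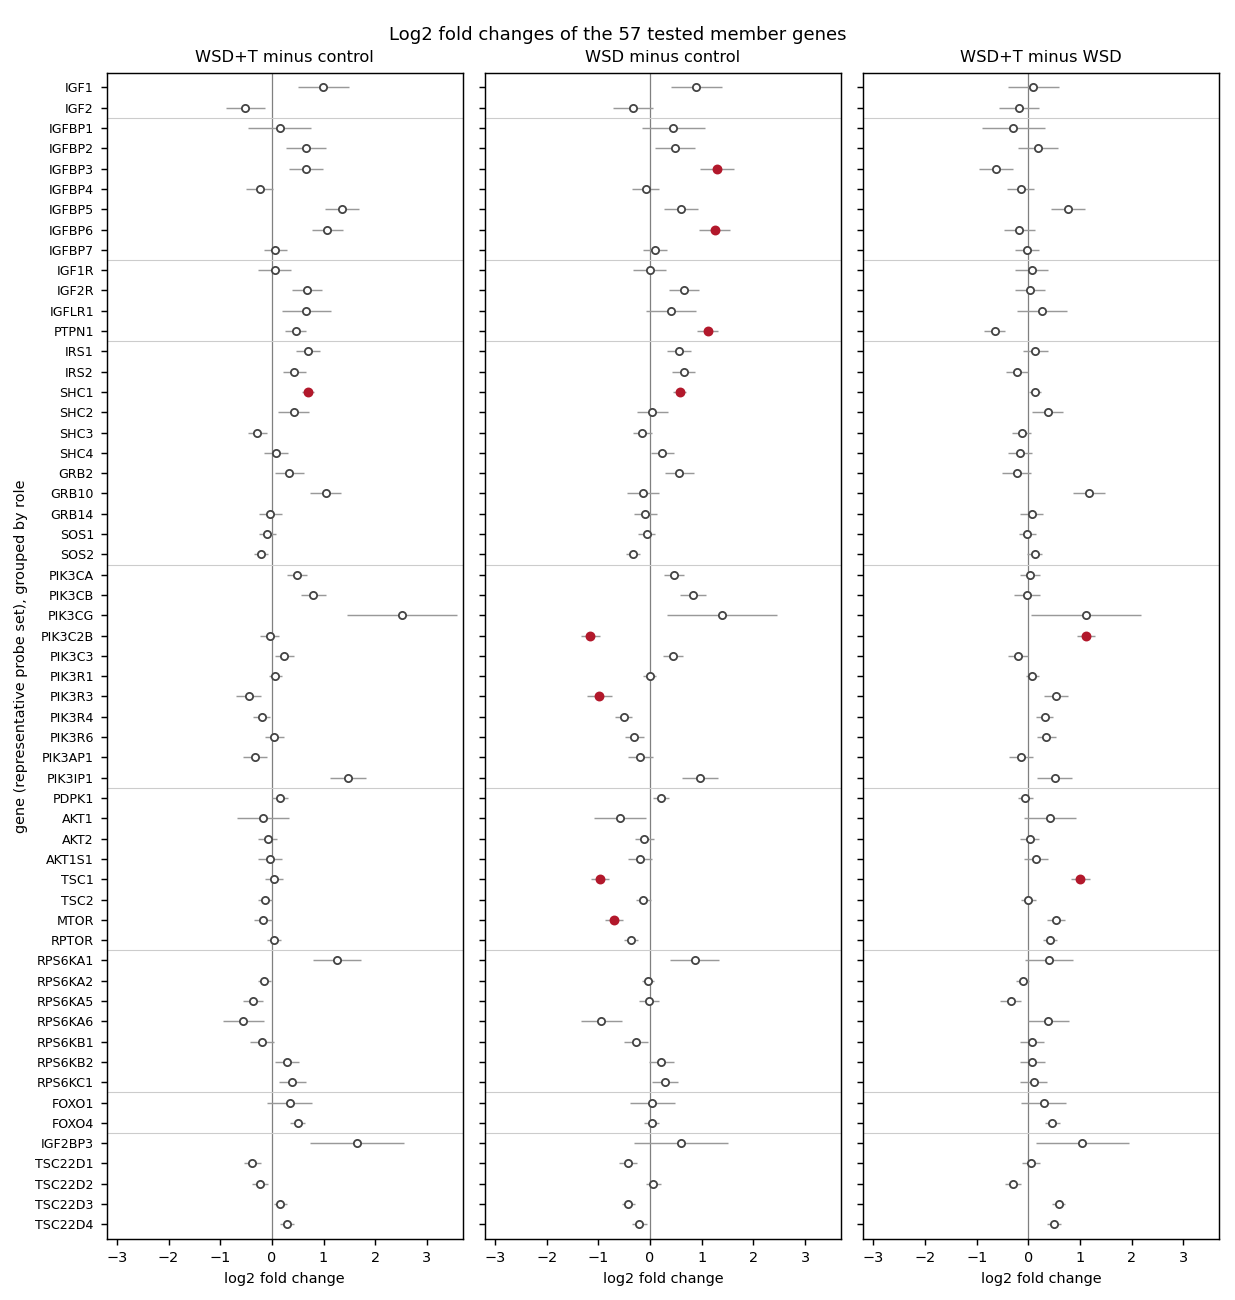
Log2 fold changes of the 57 tested member genes, each by its brightest tested probe set, in 3 panels for WSD+T minus control, WSD minus control and WSD+T minus WSD. The horizontal axis is the log2 fold change with its standard error as a bar, rows are genes grouped by role from ligands at the top to genes taken by name at the bottom, and filled red points passed adjusted p 0.05. PIK3C2B and TSC1 lie near 0 in the left panel, below -0.9 in the middle one and above 1 in the right one. The called GRB10 and SOS1 probe sets and the second called PIK3R3 probe set were not the brightest of their genes and are not drawn.

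Of the ligands, IGF1 and IGF2 were tested and neither was called. IGF1, the growth factor that acts through IGF1R, had signals of 1086, 909 and 1064 in WSD+T, 978, 1872 and 466 in WSD, and 759, 279 and 596 in control by its brightest probe set. All WSD+T arrays lay above all control arrays, while WSD held the highest array of all and overlapped with both other groups (WSD+T vs control log2 fold change 0.99, SE 0.50, adjusted p = 0.313). The other tested IGF1 probe sets had the same order of arrays within WSD, with replicate 2 highest and replicate 3 lowest. IGF2, the fetal-type IGF that is also cleared by IGF2R, had signals of 54.5, 84.2 and 55.3 in WSD+T, 73.2, 145 and 34.9 in WSD, and 74.1, 102 and 122 in control. Its groups overlapped in every comparison, with adjusted p = 0.503 for WSD+T and 0.582 for WSD against control.

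Of the 12 tested probe sets of IGF-binding proteins, 2 rose in WSD, against 4.78% of all tested probe sets, and none fell, against 9.68%. IGFBP3, the main carrier of IGFs in blood and a local inhibitor of their action, had signals of 281, 499 and 312 in WSD, against 198, 74.1 and 160.5 in control, with all WSD arrays above all control arrays (1.29, SE 0.33, adjusted p = 0.0333). Its WSD+T signals, 235, 205 and 229.9, were above all control arrays and below all WSD arrays, and neither difference was called (adjusted p = 0.305 against control and 0.320 against WSD). IGFBP6, which binds IGF2 preferentially, had signals of 278, 567 and 405 in WSD, against 192, 127 and 164 in control (1.25, SE 0.31, adjusted p = 0.0301). In WSD+T it had 301, 518 and 281, also above every control array (1.08, SE 0.31, adjusted p = 0.116). These calls leaned on single arrays. IGFBP3 passed only without WSD replicate 1, WSD replicate 3 or control replicate 1 (adjusted p over the 9 fits that left out 1 array 0.0307 to 0.0740), and IGFBP6 did not pass without WSD+T replicate 1, WSD replicate 2 or control replicate 2 or 3 (0.0277 to 0.0968).

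Among binding proteins that were not called, IGFBP5 had the widest difference between WSD+T and control. This protein binds IGFs in the extracellular matrix. Its signals were 143, 114 and 146 in WSD+T, 40.9, 110.5 and 79.6 in WSD, and 55.5, 23.0 and 54.3 in control, so the WSD+T arrays lay above all others (WSD+T vs control 1.36, SE 0.33, adjusted p = 0.0752). IGFBP2, a binding protein of follicular fluid, had signals of 1603, 1937 and 1535 in WSD+T, 2141, 717 and 2104 in WSD, and 971, 948 and 1273 in control, and WSD replicate 2 lay below every other array. IGFBP1, a hepatic and decidual binding protein controlled by insulin, had 1407, 1258 and 1221 in WSD+T, 942, 1086 and 3902 in WSD, and 501, 1607 and 1934 in control, where the highest array was WSD replicate 3. IGFBP4, whose cleavage by PAPPA is known from growing follicles, averaged 1177 ± 51.9 in WSD+T, 1369.9 ± 530.2 in WSD and 1405 ± 294 in control (SD, n = 3), with overlap throughout. IGFBP7, a low-affinity relative, had 6 tested probe sets, none of them called. Of these, 5 had log2 fold changes of 0.10 to 0.48 in WSD vs control, and the sixth had -0.17 with WSD replicate 2 at 70.5 and the other WSD arrays at 226 and 223.

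The receptors themselves were not called in any comparison. IGF1R, which carries the signal of both IGFs, had signals of 600.2, 634 and 614 in WSD+T, 861, 333 and 705 in WSD, and 498, 552 and 755 in control by its brightest probe set. WSD held both the highest and the lowest array, and the log2 fold change of WSD against control was -0.01 (SE 0.32, 95% interval -0.74 to 0.72). In WSD+T against control this probe set had 0.05, while the other tested IGF1R probe sets had -0.38 and -0.62 (adjusted p = 0.525 and 0.370). In both of those all WSD+T arrays lay below all control arrays. Their WSD vs control values were -0.42 and -0.29, with overlap. IGF2R, which takes up IGF2 for degradation, had 816, 589 and 753 in WSD+T, 687, 1062 and 461 in WSD, and 544, 403 and 379 in control, with all WSD+T arrays above all control arrays (0.69, SE 0.29, adjusted p = 0.248). Its other tested probe set had log2 fold changes of 0.73 in WSD+T (adjusted p = 0.148) and 0.79 in WSD (adjusted p = 0.0551), both against control. IGFLR1, a receptor of IGF-like ligands, had 58.6, 68.2 and 65.1 in WSD+T, 54.8, 128 and 12.9 in WSD, and 42.1, 25.2 and 36.9 in control, with adjusted p of 0.487 or more. The insulin receptor gene INSR was not analysed here.

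PTPN1 (PTP1B), the tyrosine phosphatase that switches off the insulin receptor, was the clearest rise in WSD. Its signals were 333, 465 and 276 in WSD, against 148, 154 and 156 in control, with no overlap (1.12, SE 0.21, adjusted p = 0.0121). It passed in all 9 fits that left out 1 array (adjusted p = 0.00660 to 0.0405) but not in a fit to the WSD and control arrays alone (0.0527). In WSD+T the signals were 234, 174 and 249, above every control array and below every WSD array. Neither of these differences was called (0.46, SE 0.21, adjusted p = 0.270 against control, and -0.65, SE 0.21, adjusted p = 0.122 against WSD). A further PTPN1 probe set was too dim to be tested.

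SHC1, the adaptor that links activated receptors to GRB2, SOS and RAS, rose in both diet groups. It had signals of 1812, 1754 and 1705 in WSD+T, 1478, 1711 and 1648 in WSD, and 1109.9, 1047 and 1080.0 in control. Every array of either diet group lay above every control array, and the groups themselves were tight. The log2 fold change was 0.70 in WSD+T (SE 0.12, adjusted p = 0.0322) and 0.57 in WSD (SE 0.12, adjusted p = 0.0186), each against control, while WSD+T differed from WSD by 0.13 (SE 0.12, adjusted p = 0.624). A second SHC1 probe set, too dim to be tested, had 30.9, 25.0 and 27.2 in WSD+T, 18.1, 26.5 and 19.8 in WSD, and 16.9, 8.30 and 17.8 in control, again with control lowest. The WSD call was lost only without control replicate 2 among the leave-one-out fits (adjusted p = 0.0593). The WSD+T call held only in the 3 fits that left out a WSD array and was lost without any WSD+T or control array (adjusted p over the 9 fits 0.0184 to 0.180). SHC2, SHC3 and SHC4, the relatives of SHC1, had 4 tested probe sets, none of them called.

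The insulin receptor substrates IRS1 and IRS2, the docking proteins that recruit PI3-kinase, were not called. IRS2 had signals of 1774, 1831 and 1794 in WSD+T, 2240.4, 1476 and 2787 in WSD, and 1447, 1174 and 1376 in control, so both diet groups lay above control on every array. The log2 fold change was 0.43 in WSD+T (SE 0.22, adjusted p = 0.320) and 0.65 in WSD (SE 0.22, adjusted p = 0.0825) against control. Its second probe set had 1.20 in WSD (SE 0.36, adjusted p = 0.0598), with WSD signals of 577, 285 and 886 against 283, 195 and 194 in control. Without WSD replicate 2, IRS2 was called higher in WSD by both probe sets. IRS1 had 52.0, 72.4 and 64.1 in WSD+T, 71.5, 37.6 and 61.5 in WSD, and 21.4, 35.0 and 43.0 in control, with WSD+T above control on every array (0.70, SE 0.24, adjusted p = 0.165).

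GRB10, an adaptor that inhibits insulin and IGF1 receptors, gave different patterns by its 3 tested probe sets. The dimmest of them rose in WSD, with signals of 34.5, 42.0 and 28.2 in WSD, against 21.3, 13.2 and 8.72 in control (0.76, SE 0.18, adjusted p = 0.0277). That call held only without WSD+T replicate 2, WSD replicate 3 or control replicate 1 (adjusted p over the 9 fits 0.0175 to 0.0805). The mean of this probe set, 5.28 on the log2 scale, lay just above the filter of 5.22, which it reached only with its WSD arrays included. It was also called with no filter, but not with a pseudocount of 64. The brightest one had 726, 566 and 733 in WSD+T, 231, 489.7 and 208 in WSD, and 393, 319 and 256 in control. There the WSD+T arrays stood above all 6 others, and WSD did not separate from control (WSD+T vs control 1.04, SE 0.31, adjusted p = 0.128; WSD+T vs WSD 1.18, SE 0.31, adjusted p = 0.0763). Without WSD replicate 2 this probe set was called higher in WSD+T against both control and WSD. The third GRB10 probe set overlapped between WSD and control (adjusted p = 0.163). Which transcript each probe set detects was not tested.

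GRB2, the adaptor that carries SOS to receptors, had 4 tested probe sets and no call. Its brightest had 1553, 1387 and 1536 in WSD+T, 1887, 2552 and 1104 in WSD, and 1442, 1022 and 1108 in control, and WSD again held replicate 2 as its highest and replicate 3 as its lowest array. GRB14, another receptor inhibitor, averaged 3406 ± 214 in WSD+T, 3356 ± 948 in WSD and 3492 ± 488 in control (SD, n = 3), with adjusted p of 0.81 or more in each comparison.

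The RAS exchange factor SOS1 had 5 tested probe sets, of which 1 fell in WSD. That probe set had signals of 328, 282 and 467 in WSD, against 688, 679 and 576 in control (-0.85, SE 0.19, adjusted p = 0.0216), and the groups did not overlap. In WSD+T it had 665, 631 and 604, within the control range and above every WSD array (WSD+T vs WSD 0.82, SE 0.19, adjusted p = 0.0561). The WSD call was lost without WSD replicate 1, control replicate 1 or control replicate 2 (adjusted p over the 9 fits 0.00520 to 0.0692). The brightest SOS1 probe set gave 727, 598 and 633 in WSD and 659.8, 600.2 and 797 in control, with a log2 fold change of -0.06 (SE 0.16, adjusted p = 0.819). The other 3 had -0.39, -0.94 and -0.37, and in the last 2 of these all WSD arrays lay below all control arrays, so all 5 values were below 0 and 1 was called. A further SOS1 probe set, too dim to be tested, overlapped between groups in every comparison. SOS2, its paralog, had 4 tested probe sets with WSD vs control log2 fold changes of -0.54 to 0.17, and none was called.

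**Figure D2:**
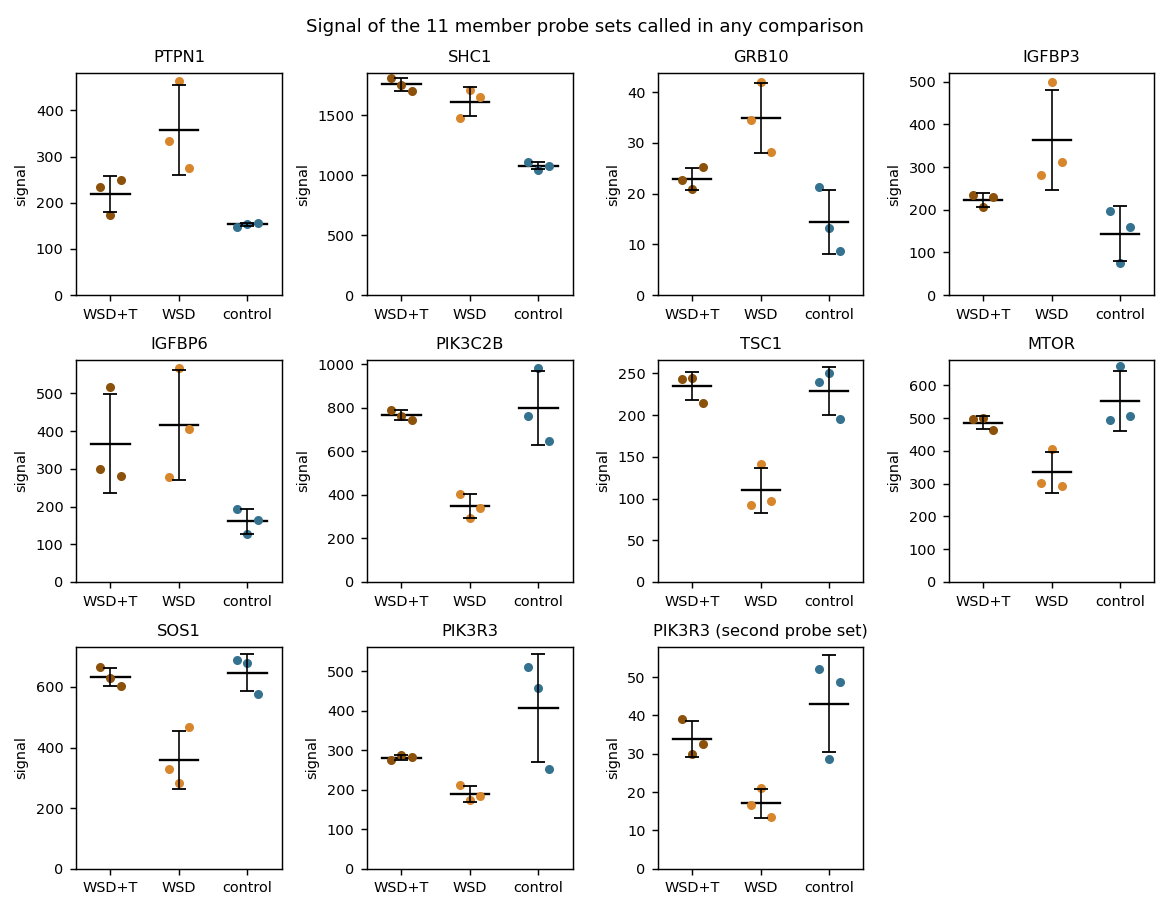
Signal of the 11 member probe sets called in any comparison, 1 panel for each, with WSD+T, WSD and control from left to right. The vertical axis is the linear signal from 0, points are single arrays, long horizontal lines are group means and bars are SD (n = 3). The upper 5 genes have their highest mean in WSD except SHC1, and in PIK3C2B, TSC1, MTOR, SOS1 and both PIK3R3 panels all WSD points lie below all control points.

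In the PI3-kinase family 3 of 18 tested probe sets fell in WSD, 2 of them for PIK3R3, against 9.68% of all tested probe sets. None rose, against 4.78% of all. PIK3C2B, a class II PI3-kinase that makes phosphoinositides on internal membranes, had signals of 404, 295 and 341 in WSD, against 764, 984 and 646 in control. No WSD array reached the lowest control array (-1.16, SE 0.18, adjusted p = 0.00753). The call held in all 9 fits that left out 1 array (adjusted p = 0.00952 to 0.0243) and in the 13 other settings tried (0.00396 to 0.0481). With 789, 762 and 744 in WSD+T, PIK3C2B lay above every WSD array (1.12, SE 0.18, adjusted p = 0.0295) and within the control range (-0.04, SE 0.18, 95% interval -0.46 to 0.38). The difference between WSD+T and WSD was not called without WSD replicate 1 or without any WSD+T array (adjusted p over the 9 fits 0.0293 to 0.142). A second PIK3C2B probe set, too dim to be tested, did not show the fall. It had 21.5, 9.61 and 30.2 in WSD+T, 15.7, 40.8 and 5.23 in WSD, and 9.22, 2.08 and 15.9 in control, with overlap in every comparison.

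PIK3R3, a regulatory subunit of class I PI3-kinase, fell in WSD by both of its tested probe sets. The brighter had signals of 212, 175 and 183 in WSD, against 510.3, 457 and 253 in control (-0.98, SE 0.24, adjusted p = 0.0287). The second had 16.7, 21.1 and 13.5 in WSD, against 52.0, 28.6 and 48.7 in control (-0.82, SE 0.19, adjusted p = 0.0250), with no overlap in either. WSD+T lay above every WSD array by both probe sets, at 275, 287 and 282 and at 39.0, 30.0 and 32.6, without passing (adjusted p = 0.245 and 0.124). PIK3C2B, PIK3R3, TSC1, MTOR and SOS1 were chosen as low in WSD, and both comparisons use the same WSD arrays, so their position in WSD+T against WSD is not independent of that choice. For the brighter probe set the WSD call held only without WSD replicate 3 or control replicate 3 (adjusted p over the 9 fits 0.0108 to 0.0929), and for the second it was lost without WSD replicate 1, control replicate 1 or control replicate 3 (0.0204 to 0.0779). A further PIK3R3 probe set, too dim to be tested, overlapped between groups in every comparison.

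The catalytic subunits of class I PI3-kinase were not called. PIK3CA, the alpha subunit, had signals of 273, 248 and 266 in WSD+T, 301, 281 and 201 in WSD, and 215, 192 and 145 in control. PIK3CB, the beta subunit, had 907, 785 and 891 in WSD+T, 722, 1240.2 and 741 in WSD, and 574, 548 and 362 in control, and no array of either diet group overlapped with control (0.81, SE 0.25, adjusted p = 0.138 in WSD+T, and 0.83, SE 0.25, adjusted p = 0.0585 in WSD). PIK3CG, the gamma subunit, known mainly from leukocytes, is described with the spread of the WSD arrays below. PIK3R1, the most studied regulatory subunit, averaged 1018 ± 34.8 in WSD+T, 966 ± 31.1 in WSD and 973 ± 83.5 in control (SD, n = 3) by its brightest probe set, and its 4 tested probe sets overlapped between groups in every comparison. PIK3C3, the class III kinase of autophagy and endosomes, had log2 fold changes of 0.45 and -0.15 in WSD vs control by 2 probe sets, neither called.

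PIK3IP1, a membrane protein that inhibits the catalytic subunits, had signals of 213, 202 and 184 in WSD+T, 103, 266 and 87.1 in WSD, and 78.4, 51.7 and 56.2 in control. All diet arrays lay above all control arrays, and neither difference was called (WSD+T 1.48, SE 0.34, adjusted p = 0.0684; WSD 0.97, SE 0.34, adjusted p = 0.0944). In WSD+T it was called without WSD replicate 2 or without WSD replicate 3. PIK3R4, the PIK3C3 partner, chosen here after its values were seen, had 129, 162 and 167 in WSD, against 230.5, 265 and 181 in control (-0.51, SE 0.17, adjusted p = 0.0753). PIK3R6, a regulatory subunit of the gamma kinase, and PIK3AP1, an adaptor of PI3-kinase in leukocytes, were not called, with WSD vs control log2 fold changes of -0.30 and -0.19.

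Downstream of PI3-kinase, 2 of the 11 tested probe sets of PDPK1, AKT, TSC and mTOR genes fell in WSD, against 9.68% of all tested probe sets. None rose, against 4.78% of all. TSC1 (hamartin), which stabilises TSC2 in the complex that restrains mTOR, had signals of 92.6, 141 and 96.5 in WSD, against 239.5, 250.2 and 196 in control. The highest WSD array lay below the lowest control array (-0.97, SE 0.18, adjusted p = 0.0116), and the call held in all 9 fits that left out 1 array (0.00756 to 0.0429) but not with the WSD and control arrays alone (0.0597). In WSD+T the signals were 243, 245 and 215, above every WSD array (1.01, SE 0.18, adjusted p = 0.0315) and overlapping with control (0.04, SE 0.18, 95% interval -0.37 to 0.44). The WSD+T call against WSD was lost without WSD replicate 1, control replicate 1 or any WSD+T array (adjusted p over the 9 fits 0.0195 to 0.147).

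MTOR, the kinase itself, fell in WSD with signals of 303, 407 and 294, against 494, 658 and 506 in control (-0.70, SE 0.17, adjusted p = 0.0307). The call held only without WSD replicate 2, WSD replicate 3 or control replicate 1 (adjusted p over the 9 fits 0.0177 to 0.0935). WSD+T had 496, 501 and 462, above every WSD array without passing (0.53, SE 0.17, adjusted p = 0.128). RPTOR, the mTOR complex subunit that selects substrates, had 103, 97.6 and 93.7 in WSD+T, 60.7, 79.7 and 69.8 in WSD, and 103, 89.7 and 91.3 in control by its brighter probe set. WSD lay below both other groups on every array (-0.37, SE 0.13, adjusted p = 0.102 against control), as it did by the second RPTOR probe set (-0.27, SE 0.14, adjusted p = 0.217).

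TSC2, the catalytic partner of TSC1, did not follow it. Its signals were 158, 192 and 166 in WSD+T, 191, 150.5 and 176 in WSD, and 195, 196 and 179 in control, with adjusted p of 0.553 or more in each comparison. AKT2 averaged 719 ± 76.4 in WSD+T, 706 ± 88.6 in WSD and 771 ± 155 in control (SD, n = 3). AKT1 had 577, 559 and 638 in WSD+T, 598, 552 and 803 in WSD, and 606, 568 and 634 in control by 1 probe set. Its brighter probe set had 1110.0, 962 and 1094 in WSD+T, 976, 301 and 1629.9 in WSD, and 979, 1138 and 1487 in control, so the low value of WSD replicate 2 was seen by 1 of the 2 probe sets. PDPK1, the kinase that activates AKT, averaged 211 ± 18.5 in WSD+T, 222 ± 34.0 in WSD and 188 ± 15.1 in control. The log2 fold change of WSD against control was 0.09 (95% interval -0.28 to 0.46) for the second AKT1 probe set and -0.11 (-0.53 to 0.30) for AKT2. AKT1S1 (PRAS40), an mTOR inhibitor that AKT phosphorylates, had -0.19 and -0.09 by 2 probe sets, with overlap in each comparison.

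No S6 kinase was called by any of 11 tested probe sets. Of all tested probe sets, 14.5% were called in either direction in WSD vs control, 1.97% in WSD+T vs control and 2.99% in WSD+T vs WSD. RPS6KB1, the p70 kinase downstream of mTOR, had 583, 597 and 570.3 in WSD+T, 478, 441 and 818 in WSD, and 788, 664 and 580.2 in control by its brightest probe set. Another RPS6KB1 probe set was lower than control on every diet array, with 306, 315 and 319 in WSD+T, 341, 301 and 294 in WSD, and 407, 538 and 399 in control (WSD+T -0.48, SE 0.15, adjusted p = 0.138; WSD -0.49, SE 0.15, adjusted p = 0.0616). RPS6KB2, its paralog, overlapped between groups in every comparison. RPS6KA2, RPS6KA5, RPS6KA6 and RPS6KC1, other kinases of this name family, had adjusted p of 0.142 or more throughout.

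FOXO factors, which AKT keeps out of the nucleus, were represented by FOXO1 and FOXO4. FOXO4 had signals of 895, 846 and 953 in WSD+T, 664, 619 and 650.0 in WSD, and 727, 631 and 548 in control. The WSD+T arrays lay above all others, with 0.50 against control (SE 0.14, adjusted p = 0.115) and 0.47 against WSD (SE 0.14, adjusted p = 0.106), and neither was called. FOXO1, which is abundant in granulosa cells of growing follicles, had 794, 681 and 724 in WSD+T, 519.8, 303 and 1309 in WSD, and 549.7, 516 and 667 in control, so WSD held the extremes.

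Of the genes taken by name only, 5 were tested and none was called, against 14.5%, 1.97% and 2.99% of all tested probe sets in the 3 comparisons. TSC22D3, a glucocorticoid-induced leucine zipper gene chosen here after its values were seen, had 1739, 1810.2 and 1673 in WSD+T, 1229, 1085 and 1153 in WSD, and 1726, 1449 and 1499.8 in control. WSD lay below both other groups on every array, just short of the threshold (WSD+T vs WSD 0.59, SE 0.13, adjusted p = 0.0507; WSD vs control -0.42, SE 0.13, adjusted p = 0.0606). TSC22D3 passed as higher in WSD+T than in WSD under a pseudocount of 64, with no filter, with the stricter filter, under quantile or cyclic loess normalization, with weights per array and with the myeloid covariate described below. It did not pass under a pseudocount of 1, median centring, the replicate block or weights per group. Nor did it pass with WSD+T replicates averaged, with only the 2 groups compared, or in any fit that left out 1 array. Its relatives TSC22D1, TSC22D2 and TSC22D4 had WSD vs control log2 fold changes of -0.43, 0.06 and -0.21, none of them called.

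**Figure D3:**
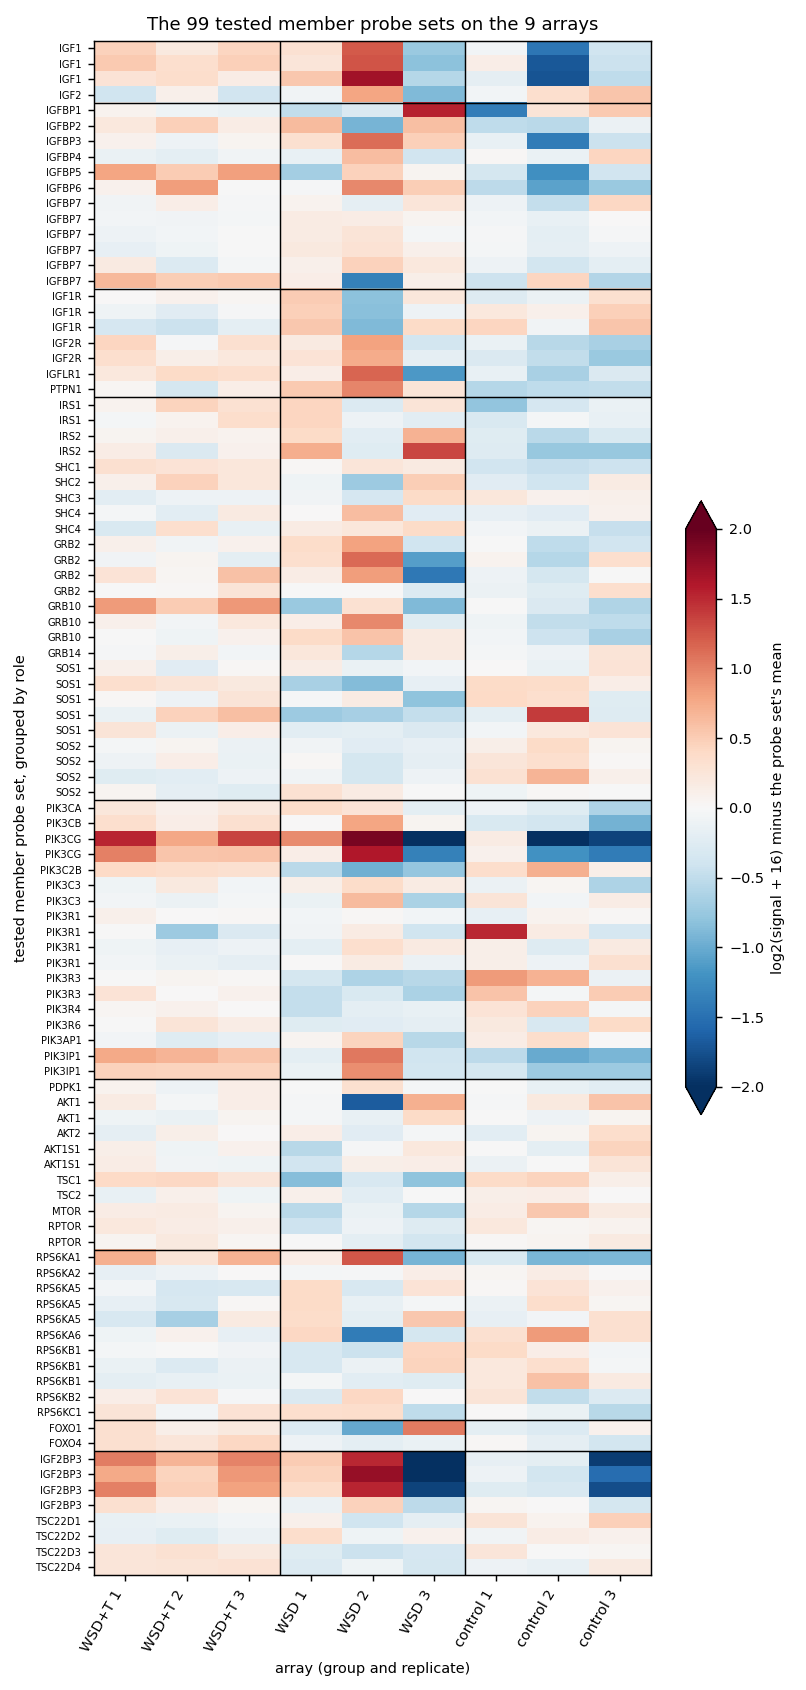
Log2(signal + 16) of the 99 tested member probe sets on the 9 arrays, each centred on its own mean, with WSD+T, WSD and control from left to right and genes grouped by role from top to bottom. Red is above and blue below the probe set's mean, with colours capped at 2 on either side. WSD replicates 2 and 3 carry the strongest colours, often of opposite sign, as in IGF1, PIK3CG, RPS6KA1 and IGF2BP3, while the WSD+T columns resemble each other.

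Much of the variation among members lay within WSD. In 40 of the 99 tested members WSD replicate 2 was the highest and replicate 3 the lowest WSD array, or 40.4%, against 27.7% of all tested probe sets. The median SD of the members on the log2 scale was 0.11 in WSD+T, 0.37 in WSD and 0.24 in control. The widest was PIK3CG, with signals of 362, 208 and 319 in WSD+T, 238, 472 and 6.29 in WSD, and 131, 12.2 and 20.5 in control. All WSD+T arrays lay above all control arrays (2.52, SE 1.06, adjusted p = 0.246), and WSD replicate 3 was the lowest array of all. IGF2BP3, an RNA-binding protein taken by name and chosen here after its values were seen, had 954, 742 and 929.6 in WSD+T, 656, 1341 and 70.3 in WSD, and 409, 397 and 112 in control by its brightest probe set. RPS6KA1, the kinase RSK1 of the RAS branch, had 300.2, 214 and 296 in WSD+T, 199, 439 and 85.7 in WSD, and 140.1, 86.1 and 87.9 in control. In PIK3CG, IGF2BP3, IGF1 and RPS6KA1 alike, WSD replicate 3 was the lowest WSD array.

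Markers of myeloid cells moved with these members. Of 13 myeloid markers, 11 had a tested probe set and none was called in any comparison. Their summed signal was 16335 to 18395 in WSD+T, 938 to 24822 in WSD and 1954 to 10351 in control, and no marker was at 0 on any array. Their score, the mean of centred log2 values, was 1.18, 0.93 and 1.11 in WSD+T, 0.97, 1.78 and -2.72 in WSD, and 0.23, -1.88 and -1.60 in control. Endothelial markers, of which 6 of 7 were tested, had summed signals of 1904 to 2186 in WSD+T, 478 to 3608 in WSD and 1023 to 1580 in control, with the extremes also on WSD replicates 2 and 3. The part of such cells in the members' values was not tested.

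Without WSD replicate 3, 22 members were higher in WSD than in control, against 11.1% of all tested probe sets under that setting. The 5 called with all arrays were among them. PIK3CG had a log2 fold change of 2.72 there (adjusted p = 0.0219), RPS6KA1 1.40 (0.0216), IGF1 1.40 (0.0429), PIK3IP1 1.24 (0.0308), PIK3CB 0.94 (0.0389), IGF2R 0.94 (0.0292), GRB2 0.89 (0.0174) and PIK3CA 0.63 (0.0351). WSD replicate 3 was the lowest WSD array in each of these genes except PIK3CB, where it lay below the WSD mean (741, mean 901). Leaving that array out therefore raises the WSD means of all of them in any case. The fits without any other array gave 1 to 5 higher members, against 2.27% to 4.87% of all tested probe sets. With the myeloid score as a covariate, an alternative chosen after the data were seen, 9 members were higher in WSD, against 6.87% of all tested probe sets, and 6 were lower, against 11%. They included all 5 and all 6 called without it. SHC1 in WSD+T against control was not called with that covariate.

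**Figure D4:**
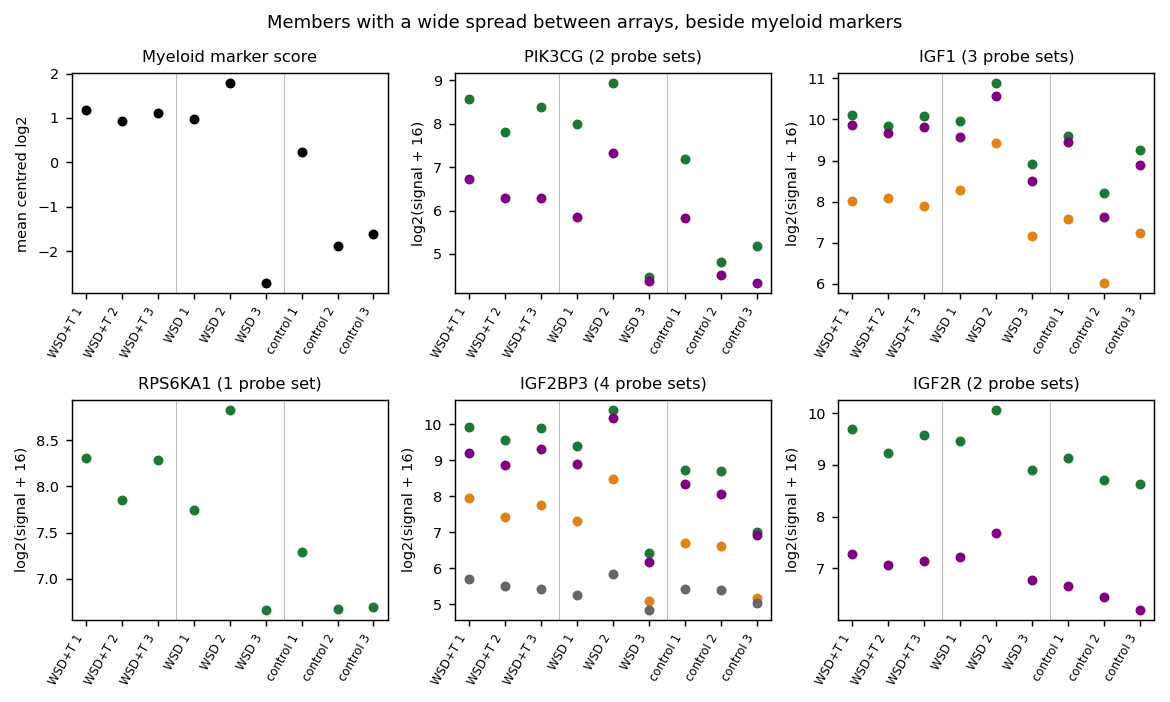
Myeloid marker score (mean centred log2 over 11 genes) and log2(signal + 16) of PIK3CG, IGF1, RPS6KA1, IGF2BP3 and IGF2R by array, with WSD+T, WSD and control from left to right. Each point is 1 array and each colour 1 tested probe set of the gene. The score and all 5 genes are at their highest in WSD on replicate 2 and at their lowest on replicate 3.

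Other genes of the pathway, taken from lists drawn up for this tissue and represented by 1 probe set each, were set against 4.74% of 10002 tested genes called higher and 10.7% called lower in WSD vs control. In WSD+T vs control 0.62% of tested genes were called higher and 1.73% lower, and in WSD+T vs WSD 2.06% and 0.79%. Among 17 regulators near the insulin receptor, 4 rose in WSD, namely SH2B3, CBLB, GAB2 and CAV1, and SOCS1 fell. GAB2, a docking protein that recruits PI3-kinase, had signals of 708, 703 and 651 in WSD+T, 580.1, 503 and 883 in WSD, and 369, 313 and 289.9 in control. It was higher than control in WSD+T (1.05, SE 0.21, adjusted p = 0.0447) and in WSD (0.95, SE 0.21, adjusted p = 0.0208). CBLB, a ubiquitin ligase that dampens receptor signalling, was likewise higher in WSD+T (1.39, SE 0.27, adjusted p = 0.0446) and in WSD (1.06, SE 0.27, adjusted p = 0.0356). CAV1, the caveolar scaffold of the insulin receptor, rose in WSD (0.73, SE 0.14, adjusted p = 0.0137).

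Among 28 members of mTOR complexes and their upstream sensors, 3 rose and 3 fell in WSD. DDIT4 (REDD1), a stress-induced inhibitor of mTOR, had signals of 1384, 1497 and 1549 in WSD, against 761, 771 and 934 in control (0.84, SE 0.15, adjusted p = 0.0114), with no overlap. TBC1D7, the third subunit of the TSC1-TSC2 complex, had 181, 134 and 163 in WSD, against 262, 289.7 and 284 in control (-0.75, SE 0.15, adjusted p = 0.0159), and STRADA, the partner of the kinase LKB1, fell too (-0.79, SE 0.14, adjusted p = 0.0104). RRAGD, a lysosomal GTPase that recruits mTOR, and PRKAB1, a subunit of the energy sensor AMPK, rose, and NPRL2, an inhibitor of amino acid sensing, fell. In WSD+T compared with WSD the AMPK catalytic subunit PRKAA2 rose (0.73, SE 0.15, adjusted p = 0.0415) and PRKAB1 fell (-0.74, SE 0.15, adjusted p = 0.0440). RICTOR and RHEB, the second mTOR scaffold and the mTOR activator, were tested and not called. EIF4EBP1 was not analysed here.

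In the RAS branch 3 of 16 tested genes rose in WSD and none fell. All 3, SPRY1, SPRY2 and SPRED2, are feedback inhibitors of RAS signalling. SPRED2 had 373, 277 and 386 in WSD+T, 773, 553 and 834 in WSD, and 304, 317 and 237 in control, and it was higher in WSD than in control (1.28, SE 0.21, adjusted p = 0.00829) and lower in WSD+T than in WSD (-1.02, SE 0.21, adjusted p = 0.0440). Of 20 tested FOXO target genes, 4 rose in WSD (CDKN1A, BCL6, FBXO32 and SOD2) and 2 fell (KLF15 and CDKN1B). CDKN1A, a cell cycle inhibitor also induced by many stresses, had 2066, 1392 and 1680.3 in WSD, against 598, 368 and 722 in control (1.61, SE 0.28, adjusted p = 0.00977). TXNIP, a FOXO-responsive regulator of glucose uptake, was not called.

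The cap-binding factor EIF4E, whose inhibitors mTOR controls, was the only one of 9 translation effectors to pass, lower in WSD+T (-1.03, SE 0.20, adjusted p = 0.0440) and in WSD (-0.79, SE 0.20, adjusted p = 0.0344) than in control. INPP5E, a phosphoinositide phosphatase, fell in WSD (-0.85, SE 0.13, adjusted p = 0.00755), as did CDKN1B, the 2 called of 18 phosphatases and AKT regulators. None of 6 genes of IGF bioavailability and none of 6 glucose transport genes was called in any comparison by limma. PAPPA and STC2 were not analysed here, nor were the members' relatives FOXO3, PIK3R2 and RPS6KA3.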

How the data were processed

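Per the labels, total RNA of pooled SAFs was amplified with a NuGEN 3' protocol and hybridised to 1-colour Affymetrix arrays, 1 for each of 9 samples labelled as biological replicates. The deposited values are linear signal intensity per probe set, made by the authors with MAS5 per the submitters' processing notes, with its version, settings and genome build not given in the sources used here. On each array the mean without the outer 2% was 200.01, so no further scaling was applied. Median signals still differed, at 15.9 on WSD replicate 3 and 19.6 to 23.7 on the other arrays. The 3 arrays per group limit the precision. Of 52865 probe sets, 99 controls were left out. Symbols came from the array's annotation, which gave 24956 probe sets 1 symbol, 361 several and 27449 none, and 132 of the 133 members had an Entrez ID in a RefSeq table of the species, all with the same symbol. Probe sequences were not used to check this annotation.

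The deposited intensities were analysed as log2(signal + 16), which understates fold changes of dim probe sets. Probe sets with a mean of at least 5.22 (a signal of about 21.2) were tested. A model with a mean for every group used all 9 arrays (limma 3.58.1, lmFit and eBayes, in R 4.3.3), after a check on simulated data, and two-sided p-values were adjusted by Benjamini-Hochberg within each comparison. The simulated arrays of a probe set had the same variance in every group, so that check did not cover the unequal spread of these groups. Residuals of arrays with the same replicate number correlated from -0.302 to 0.19, with 4 of 9 pairs over 0.1, so the numbers were not taken to pair samples. Alternatives were other pseudocounts, filters, normalizations and array weights, a replicate block, 2 WSD+T arrays averaged, 2 groups alone, each array left out, and a myeloid covariate added after the data were seen. Members, gene lists and the rule for named genes were chosen with earlier results of these data known. The rule takes called members (up to 12 per direction), a fixed set of pathway genes by their brightest tested probe set, and from every pathway list the 4 genes of smallest p at most. Called genes of a list beyond those 4 (SH2B3, RRAGD, PRKAB1, NPRL2, FBXO32, SOD2, KLF15) members outside the fixed set, and probe sets other than the brightest were named after their values were seen. Plots used matplotlib 3.10.9 (Python 3.11.15).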

Additional observations from a re-analysis of the deposited data

How the results depend on the processing

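No called fold change of a named member changed sign under the settings tried. Of 2498 values of uncalled ones 150 did, none of them called, as in AKT1 in WSD vs control (0.09 without WSD replicate 2, against -0.58). Of the values of called members under the alternatives, 202 kept their side of the threshold and 102 lost it, and of those of uncalled ones 2423 kept it and 75 passed. In WSD vs control the 5 higher members became 8 under cyclic loess, 1 with the replicate block, 0 with array weights per group, 12 with weights per array, 3 with WSD+T replicates 1 and 3 (the closest arrays) averaged, 9 with the myeloid covariate, 0 with only the 2 groups compared and 1 to 22 with 1 array left out (1 without control replicate 2, 2 without control replicate 3 or WSD+T replicate 1, 3 without WSD+T replicate 3, 22 without WSD replicate 3). The 6 lower members became 2 under median centring, 3 with weights per group, 1 with only the 2 groups compared and 3 to 7 with 1 array left out (3 without WSD replicate 1, control replicate 1 or control replicate 2). In WSD+T vs control the 1 higher member became 0 under median centring, 0 with the replicate block, 12 with weights per group, 17 with weights per array, 0 with WSD+T replicates averaged, 0 with the myeloid covariate, 13 with only the 2 groups compared and 0 to 6 with 1 array left out (0 without any WSD+T or control array, 4 without WSD replicate 3, 6 without WSD replicate 2). Its 0 lower members became 2 with weights per group and 2 with weights per array, against 5.98% and 7.77% of all tested probe sets. In WSD+T vs WSD the 2 higher members became 4 with a pseudocount of 64, 0 under median centring, 0 with the replicate block, 1 with weights per group, 16 with weights per array, 0 with WSD+T replicates averaged, 5 with the myeloid covariate, 0 with only the 2 groups compared and 0 to 5 with 1 array left out (0 without any WSD+T array or WSD replicate 1, 1 without control replicate 1, 5 without WSD replicate 2). Its 0 lower members became 8 with weights per array, against 11% of all tested probe sets, and 1, PTPN1, with the myeloid covariate, against 2.93%. Calls over all tested probe sets moved too. With weights per array those higher were 10.2% in WSD vs control, 9.5% in WSD+T vs control and 19.6% in WSD+T vs WSD, with weights per group 1.74%, 6.41% and 0.527%, with only the 2 groups compared 1.08%, 6.94% and 0.0265%, and with the replicate block 2.79%, 0.00379% and 0.00379%. Under median centring those higher were 5.53%, 0.375% and 0.455%, in the same order of comparisons. With WSD+T replicates averaged they were 3.19%, 0% and 0%, and with the myeloid covariate 6.87%, 0.625% and 5.56%. Cyclic loess gave 6.5% higher in WSD vs control, and a pseudocount of 64 gave 2.44% in WSD+T vs WSD. With 1 array left out those higher ran over 2.27% to 11.1%, 0% to 3.57% and 0% to 4.18%. Those lower in WSD vs control were 4.87% under median centring and 4.39% to 14% with 1 array left out. Averaging, leaving out an array and comparing 2 groups leave fewer arrays, and comparing 2 groups also leaves out the spread of the third. With fewer arrays the counts moved both ways, as in the 13 members of WSD+T vs control with only the 2 groups compared. The cause of these moves was not tested. Weights per array were estimated gene by gene, because the default method did not converge and gave WSD replicate 1 a weight of 34.1. A group left with 2 arrays still shared the spread of all groups. No member dimmer than the filter passed when it was left off.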
